A study of Homo sapiens with 6 samples.

Results

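The YAP-TEAD genes described here are 10 members of the Hippo pathway and its transcriptional output, namely YAP1, WWTR1, TEAD1, LATS2, AMOTL2, AJUBA, CCN1, CCN2, ANKRD1 and AXL. They were taken by symbol from the deposited table of counts, which lists 21462 genes and holds all 10 of them. RNA sequencing compared control A431 cells (A431CT, labelled wild type) with A431 cells carrying a CRISPR/Cas9 knockout of DSG2 (Dsg2KO), with 3 libraries of polyA RNA per group. A431 is a human epidermoid carcinoma line with keratinocyte features, and DSG2 encodes Desmoglein-2, an adhesive cadherin of the desmosome. Both groups were grown in serum-supplemented DMEM and no further treatment is given in the labels. Whether the Dsg2KO line is a single clone, and how dense the cultures were at harvest, is not given in the sources used here. The study describes the libraries of each group as biological replicates, and the p-values measure the spread between them.

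The Hippo pathway is a kinase cascade that restrains growth when cells are crowded or their contacts are intact. Its final kinases, LATS1 and LATS2, phosphorylate the coactivators YAP (encoded by YAP1) and TAZ (encoded by WWTR1) and keep them in the cytoplasm. In the nucleus YAP and TAZ bind TEAD factors, which recognise the letters GGAATG in DNA, and switch on genes such as CCN1, CCN2, ANKRD1 and AXL. In keratinocytes this output is tied to adhesion, tension and wound repair. Control of YAP and TAZ acts largely on the protein, which RNA counts do not measure.

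None of the 10 members passed both thresholds of the study, which ask for a change of 0.5 or more in size on the log2 scale together with an adjusted p-value under 0.05. AXL and TEAD1 rose by small amounts in Dsg2KO cells and AJUBA fell by a small amount. The coactivators YAP1 and WWTR1, the regulators LATS2 and AMOTL2 and the target CCN1 had log2 fold changes between -0.16 and 0.05. None of these passed the test. ANKRD1 was detected by few reads, and CCN2 was listed at 0 counts in every library. By the adjusted p-value alone, 3 of the 9 tested members were called, which is close to the share of all tested genes called in either direction (29.6%). With the fold change minimum the share over all tested genes was 6.03%, against 0 members. At an unadjusted p-value under 0.05 the members counted were the same 3, and DESeq2 also gave 0 members past both thresholds and 3 by the adjusted p-value.

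The libraries held between 12845719 and 16255692 counts, and each of the 12857 tested genes was fitted together with the members by edgeR's quasi-likelihood test with Benjamini-Hochberg adjustment. DSG2 itself fell from 323 ± 6.08 CPM (SD, n = 3) to 51.9 ± 2.88 CPM (SD, n = 3). CPM here is the count scaled to library size, with edgeR's TMM factors applied. Of the 6 keratinocyte markers looked up, 5 were tested, and their summed level was 9784 to 10510 CPM in A431CT and 10663 to 11111 CPM in Dsg2KO. Most of this sum was EGFR, at 8451 CPM in A431CT and 9134 CPM in Dsg2KO, a log2 fold change of 0.11 (edgeR adjusted p = 0.0058). The markers CDH1 and DSP also rose, by 0.28 and 0.18 on the log2 scale (edgeR adjusted p = 4.22e-05 and 0.0057). The basal keratin KRT5 fell by 0.13 (edgeR adjusted p = 0.011) and TP63, a basal transcription factor, was at -0.02. KRT14, the partner of KRT5, had between 0 and 2 counts per library. Whether reads of KRT14 were left out when reads were assigned to genes cannot be told from the counts. Of 4 fibroblast markers none passed the filter on low counts, COL1A2 was at 0 in every library, and the summed level did not exceed 0.369 CPM. The 3 endothelial markers summed to 8.45 to 11.3 CPM in A431CT and 15.02 to 15.54 CPM in Dsg2KO. CDH5 and PECAM1 rose by 0.76 and 0.54 on the log2 scale (edgeR adjusted p = 0.0035 and 0.0466). VWF was at 0.22 and did not pass the test (edgeR adjusted p = 0.66). The 3 leukocyte markers summed to 237 to 241 CPM in A431CT and 148 to 161 CPM in Dsg2KO. Nearly all of it was CD68, a lysosomal protein, with CD3E at 0. The log2 fold change of CD68 was -0.62 (edgeR adjusted p = 9.24e-08). The part of these shifts in the results for the members was not tested. In bulk RNA, fewer cells expressing a gene and less RNA per cell cannot be told apart.

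The promoters of CCN2 and ANKRD1 are shown first because they hold the TEAD letters most densely among the members, and an alternative promoter of AXL because it belongs to a member that rose. Windows from 250 bases before to 50 bases after each annotated start were taken from RefSeq (GRCh38.p14), where 8 of the 10 members matched with 12 windows, and TEAD1 and CCN1 had no entry. GGAATG was searched on both strands, and 14.03% of all 35116 windows held it at least once, 1.373% at least 2 times and 0.1281% at least 3 times. CCN2 held 3 copies and ANKRD1 held 2. YAP1, LATS2 and the second window each of AMOTL2, AJUBA and AXL held 1. The remaining 5 windows, with the first window of AXL among them, held none. Whether the alternative start of AXL is used in these cells was not tested. ANKRD1 was also the only member window with the AP-1 letters TGANTCA, which 7.709% of all windows held at least once and which do not overlap its TEAD letters. No member window held the CArG box of serum response factor, which 1.293% of all windows held. A match describes the letters and is not evidence of binding. In the 250 bases before each start, written 5′ to 3′ on the strand of the gene, capitals mark GGAATG or its reverse complement and, in ANKRD1, also the AP-1 letters:
CCN2 (GRCh38.p14, chr6:131951373-131951622, minus strand): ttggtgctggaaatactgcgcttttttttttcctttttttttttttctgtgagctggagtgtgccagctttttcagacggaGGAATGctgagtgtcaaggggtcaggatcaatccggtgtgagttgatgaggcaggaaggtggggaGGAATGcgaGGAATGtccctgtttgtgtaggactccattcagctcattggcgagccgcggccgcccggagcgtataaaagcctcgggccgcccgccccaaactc
ANKRD1 (GRCh38.p14, chr10:90921088-90921337, minus strand): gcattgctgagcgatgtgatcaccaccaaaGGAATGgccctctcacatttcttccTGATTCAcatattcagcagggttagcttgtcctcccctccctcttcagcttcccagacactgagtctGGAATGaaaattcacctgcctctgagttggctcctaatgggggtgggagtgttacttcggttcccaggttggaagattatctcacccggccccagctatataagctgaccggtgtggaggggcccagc
AXL, alternative start (GRCh38.p14, chr19:41226505-41226754, plus strand): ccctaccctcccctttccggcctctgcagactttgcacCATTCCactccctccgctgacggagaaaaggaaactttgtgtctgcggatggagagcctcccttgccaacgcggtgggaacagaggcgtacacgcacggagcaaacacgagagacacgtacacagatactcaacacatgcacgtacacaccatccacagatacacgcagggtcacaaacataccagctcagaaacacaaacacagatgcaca

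YAP1 and WWTR1, which encode the coactivators, did not pass the test. YAP1 lies on chromosome 11 of GRCh38 from 102110447 to 102233424. It was at 146, 141 and 141 CPM in the A431CT libraries and at 148, 144 and 150 CPM in the Dsg2KO libraries. The groups overlapped, since the highest A431CT library lay above the lowest Dsg2KO library. The log2 fold change of Dsg2KO over A431CT was 0.05 (standard error, SE, 0.04, edgeR adjusted p = 0.43). WWTR1, on chromosome 3 from 149517235 to 149736714, was at 135, 137 and 135 CPM in A431CT and at 141, 134 and 148 CPM in Dsg2KO. Here too the groups overlapped, with Dsg2KO replicate 2 below every control library. Its log2 fold change was 0.05 (SE 0.04, edgeR adjusted p = 0.41). The ratio of YAP1 to WWTR1, taken per length of their exons, was 1.39 ± 0.0416 (SD, n = 3) in A431CT and 1.39 ± 0.0375 (SD, n = 3) in Dsg2KO.

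TEAD1, a DNA-binding partner of YAP and TAZ, rose slightly. It lies on chromosome 11 from 12674421 to 12944737 and was at 199, 189 and 210 CPM in A431CT and at 236, 219 and 236 CPM in Dsg2KO. Every Dsg2KO library lay above every A431CT library, a pattern shown by 21.2% of all tested genes. The log2 fold change was 0.21 (SE 0.05, edgeR adjusted p = 0.0034), which is a mean higher by 15.6%. Among its paralogs TEAD2 stood at 0.40 on the log2 scale (SE 0.16, edgeR adjusted p = 0.0676). TEAD3 was at -0.11 and TEAD4 at 0.07, and neither passed the test. TEAD2 passed in 1 of 13 alternatives, when A431CT replicate 3 was left out, with 0.55 (edgeR adjusted p = 0.0225). Without A431CT replicate 1 it was 0.33 (edgeR adjusted p = 0.20). Per length of exon, TEAD1 made up 41.9% ± 1.29 (SD, n = 3) of the summed level of the 4 TEAD genes in A431CT and 45.1% ± 1.49 (SD, n = 3) in Dsg2KO. The lowest Dsg2KO library, at 43.4%, lay just above the highest A431CT library, at 43.2%.

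LATS2, AMOTL2 and AJUBA encode proteins that act on YAP and TAZ from upstream, and the first 2 are also transcribed by TEAD as feedback. LATS2, the kinase, lies on chromosome 13 from 20973036 to 21061586. It was at 35.7, 31.9 and 33.2 CPM in A431CT and at 28.7, 29.3 and 32.4 CPM in Dsg2KO. Dsg2KO replicate 3 lay above A431CT replicate 2, so that the groups overlapped, and the log2 fold change was -0.16 (SE 0.07, edgeR adjusted p = 0.13). AMOTL2, a scaffold of the angiomotin family that binds YAP at junctions, lies on chromosome 3 from 134355347 to 134375479. Its levels were 264, 271 and 269 CPM in A431CT and 259, 260 and 277 CPM in Dsg2KO. Its Dsg2KO libraries reached both below and above the control range. The log2 fold change was -0.02 (SE 0.04, edgeR adjusted p = 0.81), and its sign was not stable, since it was 0.0075 with total counts as the only scaling and was also positive without Dsg2KO replicate 1 or 2.

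AJUBA, a LIM-domain protein of adherens junctions that inhibits LATS kinases, was the member that fell. It lies on chromosome 14 from 22971177 to 22982551. Its A431CT libraries were at 152, 142 and 154 CPM and its Dsg2KO libraries at 133, 132 and 130 CPM. All Dsg2KO libraries lay below all A431CT libraries, as for 21.4% of all tested genes, and they were also close to each other. The log2 fold change was -0.18 (SE 0.04, edgeR adjusted p = 0.0050). The annotation lists a further protein-coding gene model on the same strand that overlaps AJUBA, and how reads shared by the models were assigned is not given in the sources used here. For lower genes the share called by the adjusted p-value was 15.3% over all tested genes, and for higher genes it was 14.3%, against 1 and 2 of the 9 tested members.

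**Figure D1:**
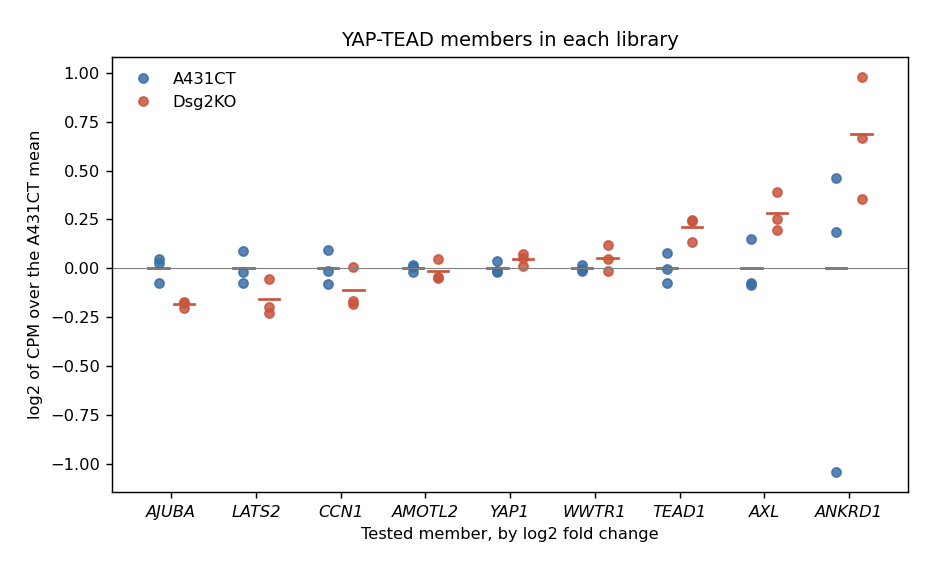
Level of the 9 tested members in each library, as the log2 of CPM over the mean of the A431CT libraries, with blue points for A431CT, red points for Dsg2KO and a bar at each group mean. The Dsg2KO points of AXL and TEAD1 lie above all A431CT points and those of AJUBA below, while the others overlap, and ANKRD1 has the widest spread.

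Of the targets, AXL showed the clearest difference. AXL encodes a receptor tyrosine kinase for the ligand GAS6 that is linked to migration and to resistance against EGFR inhibition. It lies on chromosome 19 from 41219223 to 41261766 and was at 233, 235 and 275 CPM in A431CT. In Dsg2KO it was at 294, 284 and 325 CPM, so that the groups did not overlap, with A431CT replicate 3 closest to the Dsg2KO range. Of all tested genes, 21.2% likewise had every Dsg2KO library above every A431CT library. The log2 fold change was 0.28 (SE 0.06, edgeR adjusted p = 0.0030), a mean higher by 21.5%. Without A431CT replicate 3 the log2 fold change was 0.36.

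CCN1 encodes a secreted matrix protein, formerly CYR61, that is used widely as a readout of YAP activity. On chromosome 1 from 85580761 to 85584589, it was at 133, 126 and 143 CPM in A431CT and at 119, 118 and 134 CPM in Dsg2KO. Dsg2KO replicate 3 lay within the control range and the other Dsg2KO libraries below it. The log2 fold change was -0.11 (SE 0.06, edgeR adjusted p = 0.16). Without Dsg2KO replicate 3 it was -0.17 and passed the threshold (edgeR adjusted p = 0.0307), within a range of 0.0307 to 0.48 over the alternatives.

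ANKRD1 encodes a nuclear and sarcomeric ankyrin repeat protein best known from muscle, and lies on chromosome 10 from 90912096 to 90921087. Its counts were 22, 10 and 27 in A431CT and 29, 49 and 39 in Dsg2KO, which are 1.73, 0.737 and 2.09 CPM against 1.95, 3.00 and 2.41 CPM. The highest A431CT library lay above the lowest Dsg2KO library. Its log2 fold change of 0.70 was the largest of the members, but its standard error was 0.35 and it did not pass (edgeR adjusted p = 0.15). With 1 library left out it ranged from 0.36 to 1.00, the lowest without A431CT replicate 2 and the highest without A431CT replicate 3, and it passed under none of the alternatives.

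CCN2, formerly CTGF, encodes a secreted matrix protein of the same family as CCN1 and is another standard readout of YAP activity. It lies on chromosome 6 from 131948176 to 131951372 and was listed at 0 counts in all 6 libraries. A count of 0 allows up to 3 counts per library, or 0.184 to 0.236 CPM, which covers counting error only. No fold change was formed and CCN2 was not tested. A long noncoding gene, LINC01013, overlaps it on the opposite strand and is not listed under that name in the table. CFL1, which encodes the actin-severing protein cofilin and is active in nearly every cell, had only 7 to 29 counts per library in the same table. Whether reads of CCN2 were left out when reads were assigned to genes cannot be told from the counts, and a listed 0 is therefore not read as absence of the transcript.

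Between members, levels were compared per length, in TPM, the count divided by the union of the exons in GENCODE and scaled to a fixed sum per library. The order in A431CT was AXL at 210 ± 20.8 TPM (SD, n = 3), AMOTL2 at 180 ± 2.92, CCN1 at 157 ± 9.78 and AJUBA at 110 ± 4.92. YAP1 followed at 98.2 ± 1.73 TPM, TEAD1 at 80.8 ± 4.38, WWTR1 at 70.6 ± 0.946, LATS2 at 26.0 ± 1.39 and ANKRD1 at 3.69 ± 1.70, with CCN2 at 0. No neighbours in this order had overlapping library ranges. In Dsg2KO cells the order was the same except that YAP1, at 105 ± 2.88 TPM, stood above AJUBA, at 100 ± 1.00 TPM. There the ranges of YAP1, AJUBA and TEAD1 nearly touched, with the lowest YAP1 library at 101.6 TPM, AJUBA from 99.4 to 101.3 TPM and the highest TEAD1 library at 99.3 TPM. The lengths count every annotated exon and the annotation used for counting is not stated, so small differences between genes depend on this choice.

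**Figure D2:**
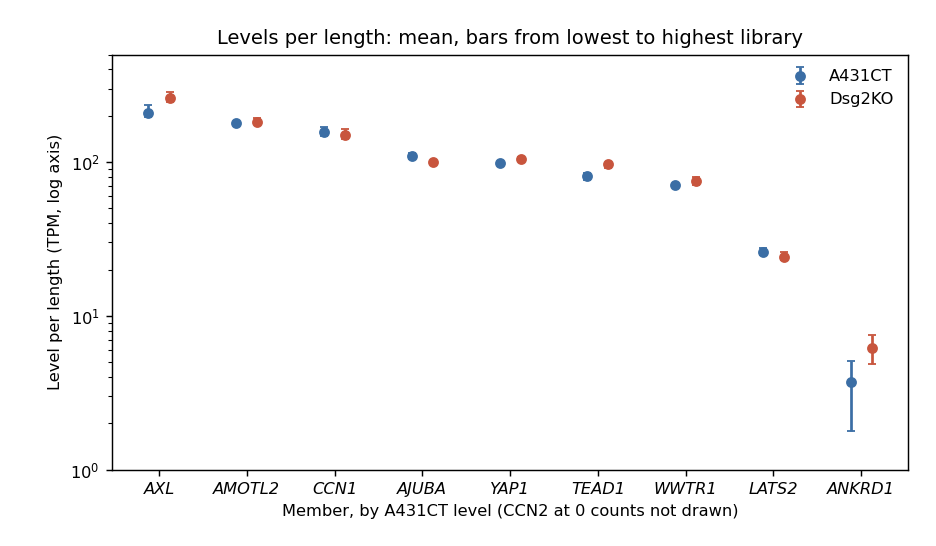
Level per length of 9 members in TPM on a log axis, ordered by the A431CT mean, with blue points for A431CT means, red points for Dsg2KO means and bars from the lowest to the highest of 3 libraries. The members from AXL to WWTR1 span 70.6 to 210 TPM in A431CT, LATS2 lies at 26.0 TPM and ANKRD1 at 3.69 TPM.

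The rest of the pathway was described through 29 further Hippo genes, of which 27 were tested and 2 (DCHS1 and VGLL3) did not pass the filter on low counts. By the adjusted p-value 10 were higher and 4 lower in Dsg2KO cells, with 13 not called, beside 14.3% higher and 15.3% lower over all tested genes, and the median log2 fold change was 0.09 beside -0.0048 over all tested genes. Past both thresholds there were 2 of the 27, both higher, beside 6.03% of all tested genes. VGLL1, a cofactor that binds TEAD factors in place of YAP in epithelial cells, was at 19.4, 19.5 and 20.1 CPM in A431CT and at 46.0, 45.0 and 47.3 CPM in Dsg2KO. This is more than a doubling with very little spread, at a log2 fold change of 1.23 (SE 0.07, edgeR adjusted p = 9.68e-09). FAT4, a giant cadherin related to the Fat receptor of flies, was at 11.7, 13.3 and 14.4 CPM in A431CT and at 20.9, 19.8 and 21.6 CPM in Dsg2KO. Its groups were also well apart, and the log2 fold change was 0.66 (SE 0.10, edgeR adjusted p = 1.51e-04).

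The 4 lower Hippo genes were kinases and a LIM protein. TAOK3, which activates the MST kinases, had a log2 fold change of -0.25 (edgeR adjusted p = 1.65e-05), and LATS1, the paralog of LATS2, of -0.24 (edgeR adjusted p = 0.0045). STK4, which encodes the kinase MST1, was at -0.16 and LIMD1, a relative of AJUBA, at -0.17. STK4 lost the threshold without A431CT replicate 1 (edgeR adjusted p = 0.12) or Dsg2KO replicate 2 (edgeR adjusted p = 0.10). LIMD1 lost it without any library except A431CT replicate 2 and Dsg2KO replicate 2, with adjusted p-values from 0.0863 to 0.17 (edgeR). Over all 13 alternatives LIMD1 lost it in 7. Of the higher Hippo genes, STK3 lost it in 5, NF2 and FRMD6 in 4 each and PTPN14 in 1. With 1 library left out, from 10 to 14 of the Hippo genes were called.

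A second list held 21 further targets of YAP and TEAD, all of them tested. By the adjusted p-value 8 were higher and 4 lower, beside 14.3% and 15.3% over all tested genes, and the median log2 fold change was 0.21. Past both thresholds 1 was higher and 2 were lower, beside 6.03% of all tested genes in either direction. FSTL1, NT5E and CRIM1 were among those that rose, with log2 fold changes of 0.47, 0.44 and 0.36 (edgeR adjusted p = 9.45e-07, 1.02e-04 and 4.70e-05), each under the fold change minimum. They encode a secreted follistatin-like protein, the surface nucleotidase CD73 and a transmembrane binder of BMP ligands.

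The lower targets were FOXF2, EDN1, THBS1 and GADD45A. FOXF2, a forkhead factor, had 164 to 184 counts in A431CT and 3 to 5 in Dsg2KO, a log2 fold change of -5.77 (SE 0.26, edgeR adjusted p = 1.02e-09). EDN1, which encodes endothelin-1, was at 11.01, 9.88 and 11.3 CPM in A431CT and at 7.18, 6.67 and 7.29 CPM in Dsg2KO, a log2 fold change of -0.61 (SE 0.13, edgeR adjusted p = 0.0029). THBS1, the matrix protein thrombospondin-1, was at -0.47 (edgeR adjusted p = 0.0011). It went past the fold change minimum without A431CT replicate 2, at -0.57, or Dsg2KO replicate 3, at -0.56, and shrank to -0.34 without A431CT replicate 3. GADD45A, a stress-induced growth arrest gene, was at -0.29 (edgeR adjusted p = 9.19e-04). FOXF2 and EDN1 were the 2 that fell past both thresholds. With 1 library left out, from 10 to 12 of the targets were called by the adjusted p-value.

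**Figure D3:**
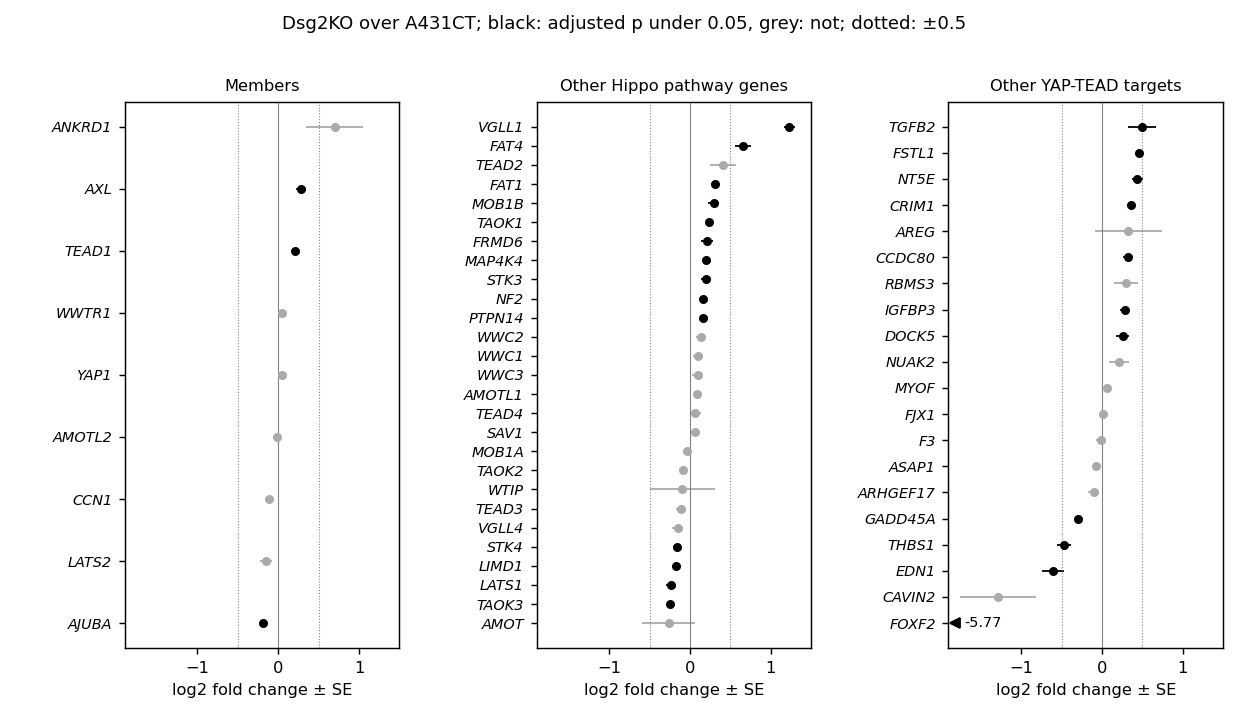
Log2 fold change of Dsg2KO over A431CT for the tested members, the other Hippo genes and the other targets, with bars of 1 standard error, black points for an adjusted p-value under 0.05, grey points for the rest and dotted lines at the fold change minimum of 0.5. The called members lie between -0.18 and 0.28, VGLL1 reaches 1.23, and FOXF2 at -5.77 is drawn as an arrow at the edge of its axis (1 target is not drawn).

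Each fold change was also set beside the median of the 50 nearest tested genes on its chromosome. For 8 of the 9 tested members this median lay between -0.05 and 0.06, so that the small changes of AXL, TEAD1 and AJUBA stood at 0.32, 0.20 and -0.24 after it was taken off. LATS2 was the exception, with a neighbourhood median of -0.25 between 19633659 and 36829104 on chromosome 13. LATS2 itself was at -0.16, which is 0.10 above its neighbours. Several of the other Hippo genes sat in shifted surroundings as well. The medians around STK4, LATS1 and TAOK3 were -0.20, -0.18 and -0.19, close to the changes of the genes themselves, and that around TAOK1, a related kinase at 0.24, was 0.18. VGLL1 and FAT4 had medians of 0.06 and 0.07. PTPN14 stood at 0.16 against a median of 0.15. Among the targets, GADD45A stood at -0.29 against a median of -0.24, and NT5E at 0.44 against -0.20. The part of these shifts in the changes of single genes was not tested.

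**Figure D4:**
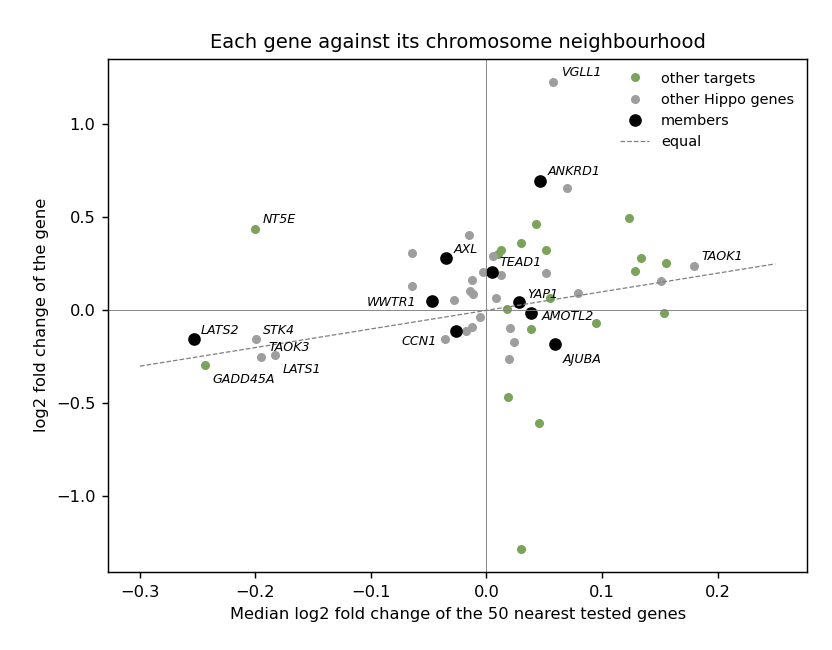
Log2 fold change of each tested gene against the median log2 fold change of its 50 nearest tested genes on the chromosome, with black points for members, grey for other Hippo genes, green for other targets and a dashed line where both are equal (FOXF2 and 1 other target are not drawn). LATS2, STK4, LATS1, TAOK3 and GADD45A lie near the line at the left, and NT5E lies far above it.

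The genes whose profiles over the 6 libraries were closest to the called members were found by the distance between log2 CPM values, each centred on its own mean, among 12856 genes. For AXL these were PDE12, HOOK3 and SLC7A6, at distances of 0.058, 0.066 and 0.068, with log2 fold changes of 0.27, 0.31 and 0.27. For AJUBA they included CYBC1 and SAFB2, at 0.028 and 0.039, with log2 fold changes of -0.19 and -0.18.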

How the data were processed

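RNA sequencing of 3 A431CT and 3 Dsg2KO libraries was analysed. Trimming, mapping of read pairs to GRCh38/hg38 and counting were done by the authors in CLC Genomics Workbench. Their deposited values are raw counts per gene symbol, not normalized. The gene annotation, the use of strand and the handling of reads shared by genes are not given in the sources used here. Library totals lay between 12845719 and 16255692 counts, and every column was mapped to a library through its label.

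Counts were analysed with R 4.3.3 and edgeR 4.0.16, using TMM factors, filterByExpr (minimum count of 10, minimum total count of 15), quasi-likelihood fits with no covariates and Benjamini-Hochberg adjustment over 12857 genes. A gene passed both thresholds when its fold change was at least 0.5 in size (log2) with an adjusted p-value under 0.05. Standard errors are the log2 fold change divided by the square root of the F statistic. Replicates differed by more than counting error (chi-square of 2.64 to 4.12 per degree of freedom). GENCODE version 44 placed 19476 of the 21462 symbols by name and chromosome and gave exon lengths. Figures were drawn with Python 3.11.15 and matplotlib 3.10.9.

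The members and gene lists were chosen with earlier results of these data known, and the lists were written from general knowledge. All members and DSG2 are named. From each list, genes past both thresholds are named, or in a direction without any, up to 4 by smallest p-value among those past the adjusted p-value. The 3 closest profiles are named for the called member of lowest p-value, 1 higher and 1 lower. In the list of targets and among the closest profiles, 1 gene each is counted but not reported here by name. CFL1, DCHS1, VGLL3, TEAD2, TEAD3, TEAD4, FSTL1, NT5E, CRIM1, THBS1, GADD45A, TAOK1 and CCN3 to CCN6 were named after their values were seen. So were STK3, NF2, FRMD6 and PTPN14. Alternatives were other filters, RLE or total-count scaling, DESeq2 1.42.0, edgeR's likelihood ratio test, a replicate block, a fold change minimum of 1, subtraction of the neighbourhood median and leaving out each library.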

Additional observations from a re-analysis of the deposited data

How the results depend on the processing

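No member passed both thresholds under any of the 15 alternatives, and 3 or 4 passed by the adjusted p-value. AXL, TEAD1 and AJUBA kept their direction in all 14 alternatives run for each and their call in the 13 that retested it (subtracting the neighbourhood median leaves the p-value as it was), with log2 fold changes of 0.22 to 0.36, 0.17 to 0.25 and -0.24 to -0.16. CCN1 passed without Dsg2KO replicate 3 and with a replicate block. With the neighbourhood median subtracted LATS2, which was not called, changed sign to 0.10, and AMOTL2 changed sign with total counts only and without Dsg2KO replicate 1 or 2, without being called. Over all genes, 250 passed with a fold change minimum of 1 in place of 775, which follows from the minimum itself. With 1 library left out, 686 to 795 passed.

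Over all tested genes, the residuals of same-numbered libraries correlated by only -0.0027, 0.014 and 0.054, which does not show whether single genes paired. Under the replicate block the standard error of AXL was 0.035 in place of 0.062 and that of CCN1 0.040 in place of 0.057. That of ANKRD1 was 0.37 in place of 0.35. With the replicate block the members called by the adjusted p-value were 4 in place of 3, CCN1 being added at a log2 fold change of -0.11 (edgeR adjusted p = 0.0494), and 769 of all genes passed both thresholds. At this depth 3 counts are 0.184 to 0.236 CPM, and ANKRD1, with 10 to 49 counts, was measured with a standard error of 0.35 on the log2 scale.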

Other observations

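The other genes of the CCN family, which encode secreted matricellular proteins, were looked up beside CCN1 and CCN2 after the values of these were seen. CCN3 had 0 to 3 counts and CCN6 had 1 to 5 counts per library, and neither passed the filter on low counts. CCN4 had 7 to 15 counts and a log2 fold change of -0.27 (edgeR adjusted p = 0.68). CCN5, which lacks a domain that the other family members share, had 22, 18 and 18 counts in A431CT and 3, 9 and 6 counts in Dsg2KO. Its log2 fold change was -1.95 (SE 0.43, edgeR adjusted p = 0.0032), lower in 3 of 3 Dsg2KO libraries, with a neighbourhood median of -0.20 on chromosome 20. CCN1 was thus the member of this family with the most reads in the table, at 134 ± 8.17 CPM (SD, n = 3) in A431CT and 124 ± 9.21 CPM (SD, n = 3) in Dsg2KO.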
